A study of Mus musculus with 4 samples.

Results

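Interferon-stimulated genes and interferon transcription factors were followed in CD4 T cells of 2D2 mice with or without the microRNA miR-146a. The list held 39 genes named by symbol: antiviral effectors, nucleic acid sensors, interferon regulatory factors (IRFs), STAT2 and the chains of the interferon receptors, without the GBP and IRG GTPases and without class I genes. A gene was taken where the array table held a probe set with that gene as its single symbol, and the probe set with the highest mean signal over the arrays stood for it. This gave values for 37 of the 39, out of 18193 genes in all, and no value for Isg15 and Ifi44, which are not analysed here. Of the 37, 34 passed the filter on dim probe sets (a mean log2 value of 5.48, a signal of 29.9) and were tested among 12819 genes, while Oasl2, Mx1 and Mx2 lay below it.

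Naive CD4 T cells had been sorted from wildtype 2D2 mice and from miR-146a-deficient 2D2 mice. Both genotypes carried the 2D2 transgene, which encodes a T cell receptor against a myelin oligodendrocyte glycoprotein peptide, so the wildtype group is wildtype for miR-146a only. Cells of both genotypes were kept for 3 days with plate-bound anti-CD3 (5 µg/ml), anti-CD28 (1 µg/ml) and, as far as the labels say, no added interferon, and 100 ng of total RNA was labelled for Affymetrix mouse arrays. There were 2 arrays for each genotype, which the labels call biological replicates without naming the mouse or culture behind each; the p-values thus reflect only the spread among these samples, which may be technical. The age of the mice, the kind of miR-146a allele and any pooling are not given in the sources used here.

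Interferons are secreted proteins that set cells into an antiviral state. Type I interferons signal through IFNAR1 and IFNAR2 and the kinases JAK1 and TYK2 to a complex that holds STAT2 and IRF9 and binds the interferon-stimulated response element (ISRE) in front of antiviral genes. Interferon gamma, which activated Th1 cells secrete, signals through IFNGR1 and IFNGR2, acts on promoters at gamma-activated sites (GAS) and induces IRF1. Stimulated CD4 T cells both make interferon gamma and respond to interferons.

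The microRNA missing from the deficient cells is shown here with its relative miR-146b, because a microRNA finds its targets mainly through its seed (bases 2 to 8, in capitals). The seeds are the same, and 20 of the 22 positions carry the same base. The sequences are RefSeq's, on GRCm38.p6.
mmu-miR-146a-5p (chr11:43374435-43374456, minus strand): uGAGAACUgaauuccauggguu
mmu-miR-146b-5p (chr19:46342790-46342811, plus strand): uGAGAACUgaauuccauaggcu

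Some genes of the list carry ISRE or GAS letters in their promoters. The letters were not used to choose the members. The members were chosen as interferon genes, however, so a higher share of such letters is not independent of that choice. RefSeq promoter windows of 300 bases (GRCm38.p6, from 250 bases before to 50 after the start) were found for 31 of the 39 genes, 39 windows in all. The ISRE core, searched as GAAA, any 2 bases and GAAA again, on both strands, was present in 11 of these 39 windows (28.2%), against 3.44% of all 32851 windows. The GAS letters, TTC, any 3 bases and GAA, which read the same on both strands, were present in 13 (33.3%), against 8.3% of all windows; 4 windows held both, and in 1 of these the matches overlapped. A match describes the letters and does not show a bound site. The following stretches show the ISRE core before the start of Oas1a, Bst2, Ifit1, Ifit3 and Stat2, and GAS letters before Irf1 and Irf8, with the matching letters in capitals and each stretch read along its gene's strand.
Oas1a, ISRE (chr5:120907526-120907565, minus strand): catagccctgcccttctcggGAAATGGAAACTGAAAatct
Bst2, ISRE (chr8:71537567-71537622, minus strand): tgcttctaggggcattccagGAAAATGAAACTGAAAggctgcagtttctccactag
Ifit1, ISRE (chr19:34640765-34640833, plus strand): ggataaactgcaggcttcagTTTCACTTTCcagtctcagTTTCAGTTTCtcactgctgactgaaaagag
Ifit3, ISRE (chr19:34583353-34583436, plus strand): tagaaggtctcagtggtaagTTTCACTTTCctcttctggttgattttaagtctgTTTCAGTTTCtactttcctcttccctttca
Stat2, ISRE (chr10:128270256-128270305, plus strand): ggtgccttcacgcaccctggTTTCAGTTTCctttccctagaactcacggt
Irf1, GAS (chr11:53769904-53769952, plus strand): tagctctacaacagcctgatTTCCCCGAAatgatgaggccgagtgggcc
Irf8, GAS (chr8:120736167-120736233, plus strand): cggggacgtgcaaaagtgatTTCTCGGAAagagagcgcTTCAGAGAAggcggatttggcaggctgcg

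The arrays were close to each other, with median signals from 48.7 to 57.7 and, across tested genes, correlations from 0.984 to 0.986 for every pair of arrays. Markers of the labelled cell type were present: all 8 T cell markers measured passed the filter, the summed signal of the list was 46238 and 54011 in the wildtype and 48591 and 53021 in the deficient arrays, and none passed the test between genotypes. Values below are deposited array signals, scaled by the authors to the same trimmed mean on every array; differences are on the log2(signal + 14.7) scale, deficient minus wildtype, which understates the change of dim genes. Adjusted p are from limma's moderated test with Benjamini-Hochberg adjustment over all 12819 genes. Signals of different genes come from different probes and are not compared with each other.

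The question the comparison addresses is whether interferon genes differ in stimulated T cells when miR-146a is missing. No gene of the list passed limma's test at an adjusted p of 0.05 in either direction, where 0.179% of all tested genes passed (0.172% higher, 0.0078% lower); the smallest adjusted p on the list was 0.25. At an unadjusted p below 0.05, 5 of the 34 were higher and 0 lower, against 2.83% and 2.42% of all tested genes. The differences nevertheless lay mostly on 1 side: 28 of the 34 (82.4%) were positive, against 47.5% of all tested genes, and their median was 0.19, against -0.01. In 16 of the 34 (47.1%) both deficient arrays lay above both wildtype arrays, against 15.9% of all tested genes, and in 1 (2.94%) both lay below, against 17.7%. These counts describe a list chosen with results of these data known, and no test of the list was made. Most differences were small, since 24 of the 34 were under 0.25 either way; 4 were at least 0.5 higher, where 3.78% of all tested genes were, and 1 at least 0.5 lower, where 4.94% were.

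**Figure D1:**
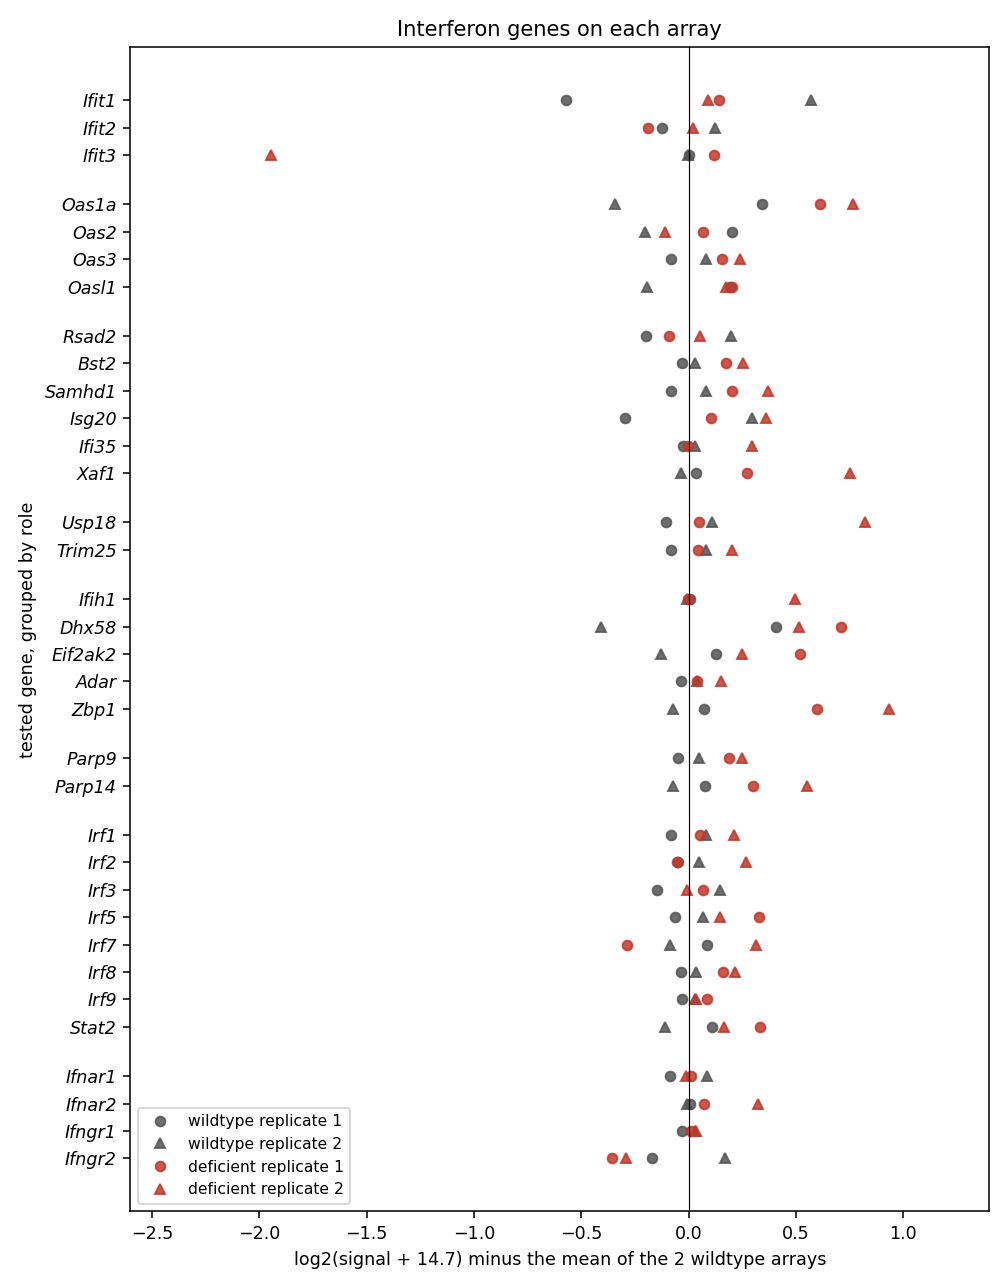
Each row is a tested gene of the list, grouped by role, and each point is 1 array: log2(signal + 14.7) minus the mean of the 2 wildtype arrays, grey for wildtype and red for deficient, circles for replicate 1 and triangles for replicate 2. The red points of Zbp1, Xaf1 and Parp14 lie to the right of both grey points, and Ifit3 has 1 red point, deficient replicate 2, far to the left.

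The nucleic acid sensors and editors were all 5 positive on their chosen probe sets, from 0.10 to 0.77, though none passed the test. Zbp1, which encodes a sensor of Z-form nucleic acids that triggers cell death, read 329.6 and 298 in the wildtype and 482 and 611 in the deficient arrays, a 1.74-fold ratio of means. Both deficient arrays lay above both wildtype arrays, and the difference of 0.77 ± 0.17 (SE; adjusted p = 0.25) was the largest of the list. The other Zbp1 probe set separated the genotypes as well, at 174 and 152 against 233 and 228, a difference of 0.47. With single arrays left out the difference of the chosen probe set ran from 0.60 to 0.93, and the smallest adjusted p over all alternatives was 0.0635.

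Dhx58, which encodes LGP2, a regulator of the RIG-I-like sensors, read 132 and 68.7 in the wildtype and 166 and 143 in the deficient arrays. The arrays did not overlap, but the wildtype arrays lay far apart, and the difference was 0.61 ± 0.30 (adjusted p = 0.953). Its 2 other probe sets lay below the filter, and with the mean of all its probe sets the difference turned to -0.41. Eif2ak2, which encodes the double-stranded RNA kinase PKR, was at 0.38, while its other probe sets gave -0.06 and 0.15. Ifih1, the sensor MDA5, was at 0.25, where deficient replicate 2 at 1460 stood apart from the other arrays at 1023 to 1036. Adar, the adenosine-to-inosine RNA editing enzyme, was at 0.10, and its other probe sets gave 0.24 and -0.09.

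The PARP pair, Parp9 and Parp14, encodes ADP-ribosyltransferase family proteins induced by interferon. Parp14 read 357 and 320.3 in the wildtype and 420.04 and 503 in the deficient arrays, without overlap. Its difference was 0.43 ± 0.16 (adjusted p = 0.856). Parp9 was at 0.22, also without overlap and with an adjusted p of 0.953.

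The OAS enzymes, which make 2-5A in response to double-stranded RNA and so activate RNase L, were mixed in size. Oas1a, whose ISRE letters lie just before its start, read 185 and 109 in the wildtype and 226 and 253 in the deficient arrays. The genotypes did not overlap, and the ratio of means was 1.63-fold. The difference was 0.69 ± 0.25 (adjusted p = 0.836), and it ran from 0.34 to 1.03 when single arrays were left out, lowest without wildtype replicate 2. Oas3 and Oasl1, the latter an OAS-like protein, were at 0.20 and 0.19. Oas2 was dim, at 39.8 and 26.5 against 35.0 and 29.2, overlapping between the genotypes with a difference of -0.02 that quantile normalization and median centring turned to 0.06. Oasl2 lay below the filter, with no array above 19.3.

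The IFIT genes encode tetratricopeptide proteins that bind viral RNA, and they showed no difference beyond the spread of the arrays. Ifit2 read 324 and 387 in the wildtype and 308 and 359 in the deficient arrays, overlapping, at -0.09 ± 0.17 (95% interval -0.47 to 0.30). Ifit3 read 59.5 and 59.4 in the wildtype and 65.7 and 4.57 in the deficient arrays. Its difference of -0.91 ± 0.62 (adjusted p = 0.971) rested on deficient replicate 2 alone and was 0.12 without that array. Ifit1 was at 0.12, with the wildtype arrays at 17.8 and 57.1 enclosing the deficient arrays. Ifit1 and Ifit3, whose promoters carry the ISRE letters printed above, thus gave no separation of the genotypes. Both were dim, with arrays on either side of the filter's signal of 29.9 and SEs of 0.48 and 0.62. Values this close to the filter cannot decide whether these 2 genes differ.

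Among the other antiviral effectors 5 of 6 tested were positive, and in 3 of the 6 both deficient arrays lay above both wildtype arrays, which 15.9% of all tested genes did. Xaf1, a proapoptotic interferon target, read 239.9 and 228 in the wildtype and 286 and 403 in the deficient arrays. The genotypes did not overlap, with a difference of 0.51 ± 0.20 (adjusted p = 0.895), while its dimmer probe set gave 0.04. Samhd1, the dNTP hydrolase that restricts retroviruses, read 2709 and 3042 against 3309.9 and 3711, a difference of 0.29 ± 0.11 (adjusted p = 0.856). Of its 4 other probe sets, all past the filter, 1 gave 0.13 and 3 gave -0.30, -0.71 and -0.76, so the direction for Samhd1 depends on the probe set. Bst2, which encodes tetherin, read 2963 and 3082 against 3407 and 3607, a narrow separation of 0.21 ± 0.09 (adjusted p = 0.947). Rsad2, which encodes viperin, overlapped between the genotypes at 93.0 and 127 against 101 and 113, a difference of -0.02 ± 0.26 that quantile normalization turned to 0.05 and median centring to 0.06. Isg20, an RNA exonuclease, and Ifi35 were at 0.23 and 0.15, both with overlap. The GTPase genes Mx1 and Mx2 lay below the filter, with no array above 32.5 and 9.59.

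The ISG15 system, in which a ubiquitin-like protein is attached to and removed from other proteins, was measured by Usp18 and Trim25. Usp18, the protease that removes ISG15 and also restrains the type I receptor, was at 372 and 434 in the wildtype and 416 and 721 in the deficient arrays. Its difference of 0.43 came with overlap, deficient replicate 1 lying between the wildtype arrays. Trim25, a ubiquitin ligase acting on RIG-I, was at 0.12.

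The 7 IRFs and Stat2 were all positive on their chosen probe sets, also with quantile normalization and median centring, but every difference lay within 0.25 on the scale used and none passed. Irf8, a factor of B and myeloid cells that activated T cells also express, read 6146 and 6439 in the wildtype and 7038 and 7311 in the deficient arrays. That is 1.14-fold without overlap, with a difference of 0.19 ± 0.09 (95% interval -0.01 to 0.39; adjusted p = 0.953) and 0.13 on its other probe set. Irf5, a factor of Toll-like receptor signalling, read 443 and 486 against 586 and 514, at 0.24 ± 0.14, while its other probe set gave -0.06. Both factors are among the markers of other cell types considered further on.

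Irf1, the main factor induced by interferon gamma, read 2209 and 2473 in the wildtype and 2423 and 2706 in the deficient arrays, overlapping, at 0.13 ± 0.11 (95% interval -0.12 to 0.38). Irf7, the amplifier of type I interferon, read 128 and 112 against 95.6 and 153, the deficient arrays lying outside the wildtype pair on either side, at 0.01 ± 0.27. Of the complex that binds the ISRE, Irf9 read 589.6 and 616 against 639.6 and 618, at 0.06 ± 0.13 (95% interval -0.23 to 0.35). Stat2 read 110.5 and 92.6 against 131 and 115, at 0.25 ± 0.24 (95% interval -0.31 to 0.81). These 2 genes did not overlap between genotypes, but their SEs are close to or above their differences. Irf2 and Irf3 were at 0.11 and 0.03.

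**Figure D2:**
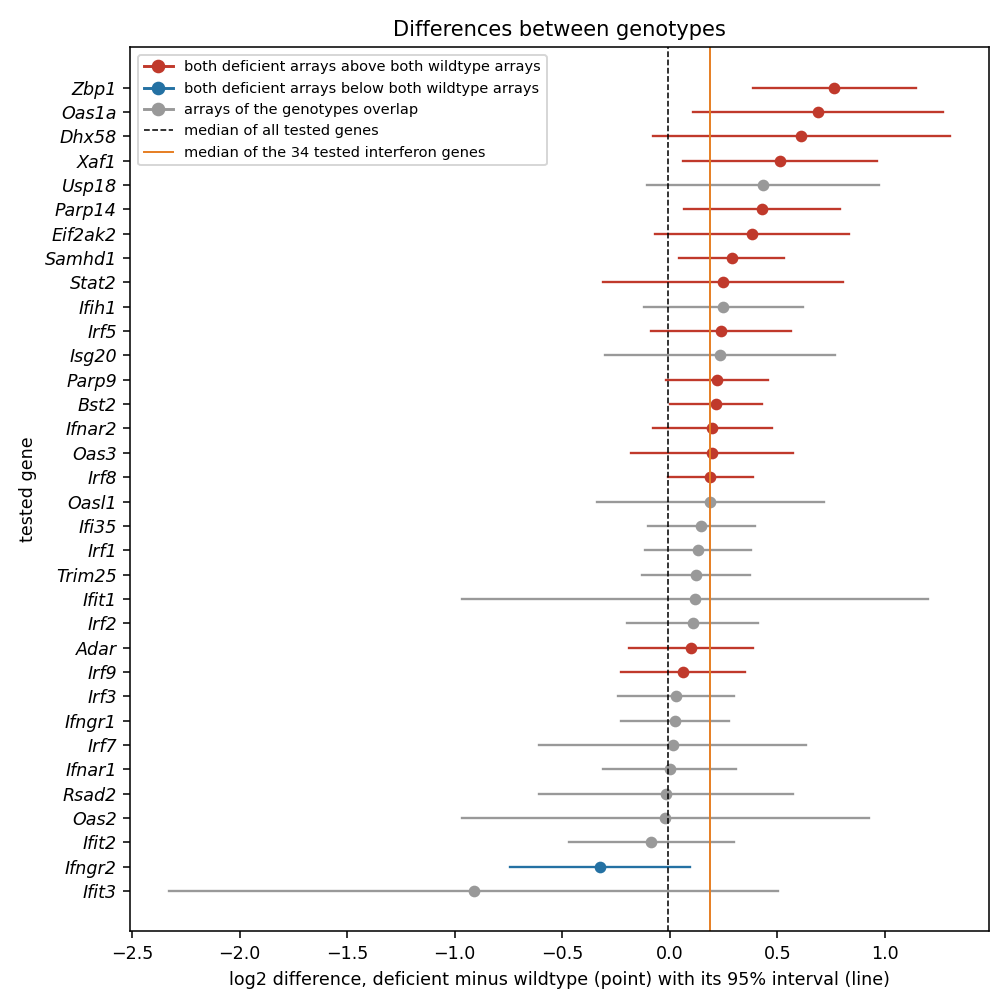
Each point is the log2 difference of a tested gene, deficient minus wildtype, with its 95% interval from limma as a line; red marks genes with both deficient arrays above both wildtype arrays, blue those with both below, grey those that overlap. The dashed line is the median of all tested genes (-0.01) and the orange line that of the 34 tested interferon genes (0.19).

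Of the 4 receptor chains 2 were positive and 2 negative, and none passed; with quantile normalization or median centring 3 were positive, Ifnar1 turning to 0.01 and 0.08. Ifnar1 read 520.3 and 588 in the wildtype and 558 and 548 in the deficient arrays, a difference of 0.00 on the scaling used here (95% interval -0.31 to 0.31). Ifngr1, the ligand-binding chain for interferon gamma, read 1020.2 and 1064 against 1049.6 and 1068, at 0.02 (95% interval -0.23 to 0.27). For both chains the arrays of the genotypes overlapped. Ifnar2 read 1159 and 1147 against 1213 and 1446, without overlap, at 0.20 ± 0.12 (adjusted p = 0.964), while its other probe sets gave 0.02 and -0.15. Ifngr2, the signalling chain for interferon gamma, was the only tested gene of the list with both deficient arrays below both wildtype arrays, at 268 and 342 against 233 and 244. Its difference was -0.33 ± 0.18 (adjusted p = 0.96), and its other probe set gave 0.07.

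The choice of probe set mattered for this list. Of the 34 genes, 15 had other probe sets past the filter, 25 in all, of which 14 had the sign of the chosen one and 11, from 8 genes, had the opposite sign. With the mean of all probe sets of each gene, 28 of 34 were again positive (82.4%, against 43.8% of all tested genes), their median was 0.14, and 12 of 34 (35.3%) had both deficient arrays above both wildtype arrays, against 14% of all tested genes.

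The shift was unequal between the deficient arrays. Of the 34 genes, 20 had their highest value on deficient replicate 2 (58.8%), against 21.9% of all tested genes. The median over the tested genes of the log2 value, taken relative to each gene's mean over the arrays, was -0.11 and -0.06 in the wildtype and 0.05 and 0.14 in the deficient arrays, so the order of the arrays follows the genotype, with unequal steps. Without deficient replicate 2 the median difference was 0.09, 27 of 34 were positive (79.4%, against 49.6% of all tested genes) and 18 of 34 lay above both wildtype arrays (52.9%, against 32.2%). Without wildtype replicate 2 or deficient replicate 1, 26 and 25 of the 34 lay above the array or arrays of the other genotype (76.5% and 73.5%, against 32.8% and 30.2% of all tested genes); with 1 array left in a genotype such separation is more frequent for every gene. Between the arrays of 1 genotype the list also differed, with a median of 0.06 between the wildtype and 0.10 between the deficient arrays.

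**Figure D3:**
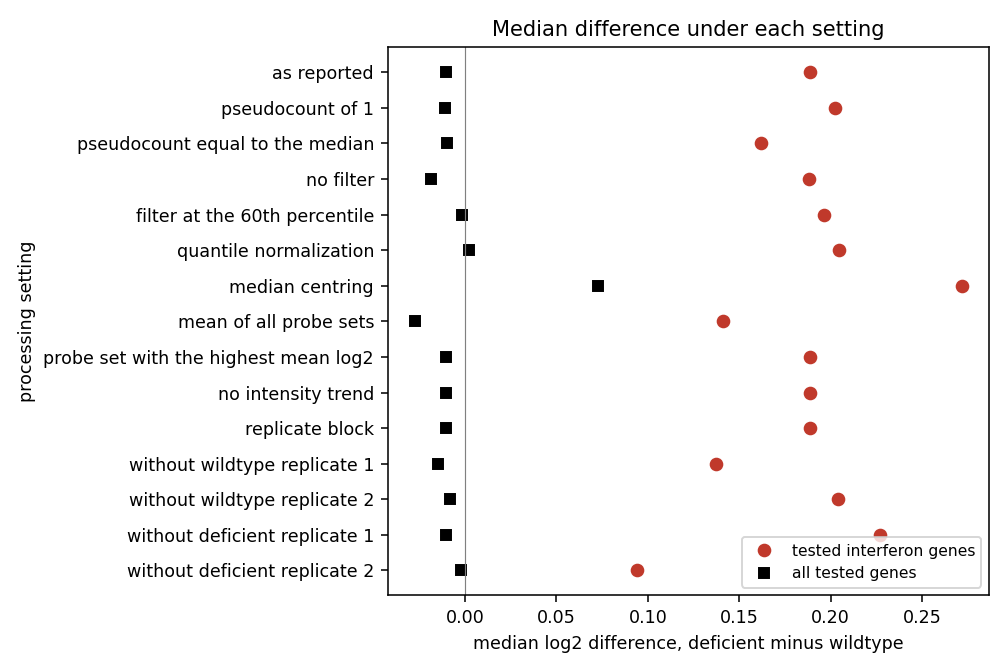
Red points give the median log2 difference (x axis, deficient minus wildtype) of the tested interferon genes and black squares that of all tested genes, for the reported setting and each alternative (y axis). The red points lie to the right of the squares in every row, from 0.09 without deficient replicate 2 to 0.27 with median centring, where all tested genes also shifted, to 0.07.

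Other genes of the pathway were described from a list of 93 symbols, of which 71 had a probe set and 57 were tested. Like the members, this list was chosen with earlier results of these data known. Only Ifng, which encodes interferon gamma, passed, so 1 of the 57 was called higher and 0 lower, where 0.172% and 0.0078% of all tested genes were. Ifng read 6570 and 6772 in the wildtype and 11428 and 10699 in the deficient arrays, the genotypes lying far apart, and it rose by 0.73 ± 0.09 (adjusted p = 0.0203). The call was lost without a filter (adjusted p = 0.157), without the intensity trend (0.461), with the replicate number as a block (0.073), and without deficient replicate 1 or 2 (0.0673 and 0.0534), while the difference stayed between 0.68 and 0.81. The gene for interferon beta, Ifnb1, was dim, at 57.9 and 38.0 against 27.9 and 22.4, a difference of -0.64 (adjusted p = 0.971), and the 7 other interferon genes with a probe set, all of the type I alpha family, lay below the filter.

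Further interferon targets outside the list also had mostly positive differences, though none passed. Of 36 tested, 29 were positive (80.6%, against 47.5% of all tested genes) and the median difference was 0.17. In 17 both deficient arrays lay above both wildtype arrays (47.2%, against 15.9% of all tested genes). These targets too were chosen with earlier results known, and no test of them as a list was made. Mndal, an interferon-inducible gene of the IFI200 family, had the smallest p among them and was named after its value was seen. It read 534 and 562 in the wildtype and 876 and 1259.9 in the deficient arrays, at 0.92 ± 0.17 (adjusted p = 0.146). Mndal passed with median centring and when either wildtype array or deficient replicate 1 was left out, and Ifi27 passed in the last of these fits.

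Of the signalling and sensing genes, 10 of 19 tested were positive (52.6%, against 47.5% of all tested genes) and their median difference was 0.02. In 3 (15.8%, against 15.9%) both deficient arrays lay above both wildtype arrays, and in 5 (26.3%, against 17.7%) both lay below. The median hides single genes that lay far from it, of which Tlr7 and Jak2 were named after their values were seen. Tlr7 encodes an endosomal sensor of single-stranded RNA that B cells and plasmacytoid dendritic cells express. It read 4.83 and 14.9 in the wildtype and 78.3 and 94.9 in the deficient arrays, at 2.07 ± 0.42 (adjusted p = 0.205). Both wildtype arrays lay below the filter's signal of 29.9, so Tlr7 passed the filter only through its deficient arrays. It is 1 of the 3 genes counted above as separated upward. Jak2, a kinase of the interferon gamma receptor, read 2733 and 3478 against 2498 and 2410.0, both deficient arrays lying below, at -0.33 ± 0.13 (adjusted p = 0.879). Jak1, the kinase shared by both receptor types, read 2568 and 2517 against 2472 and 2771, at 0.04 (95% interval -0.19 to 0.27). Tyk2, a kinase of the type I receptor, read 773 and 948 against 878 and 861, at 0.02 (95% interval -0.28 to 0.33), and -0.43 with the mean of its probe sets. Socs1, an inhibitor of JAK kinases, read 639 and 802 against 827 and 695, at 0.08 (95% interval -0.27 to 0.43). In Jak1, Tyk2 and Socs1 the arrays of the genotypes overlapped. The difference between target genes and signalling genes was not tested.

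**Figure D4:**
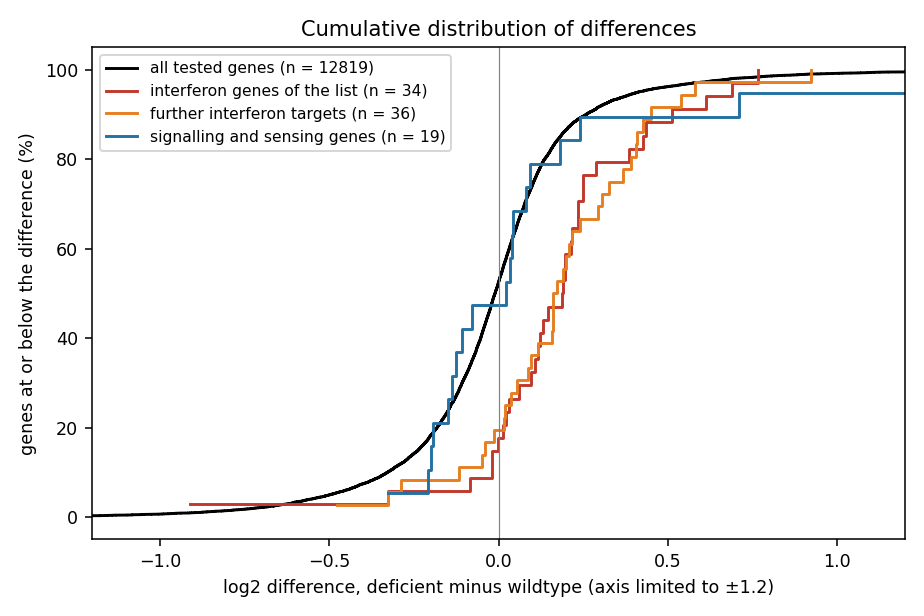
The curves give the percentage of genes (y axis) at or below each log2 difference, deficient minus wildtype (x axis, limited to 1.2 either way), for all 12819 tested genes, the 34 interferon genes, 36 further interferon targets and 19 signalling and sensing genes. The curves of both target lists lie to the right of that of all genes, at medians of 0.19 and 0.17 against -0.01, and the median of the signalling and sensing genes is 0.02. The lists were chosen with earlier results of these data known.

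The ISRE and GAS letters could be set against the differences of 28 of the 34 tested genes. The 6 without a promoter window here are Zbp1, Dhx58, Usp18, Parp14, Parp9 and Oas2, and the first 4 of them are among the 6 highest differences of the tested genes on the list. The 10 tested genes with the ISRE core in a promoter window had a median difference of 0.20, with 8 positive, against 0.13 and 15 positive for the 18 with a window and no match. The 13 with GAS letters had a median of 0.19, against 0.12 for the 15 without. These are medians of small overlapping groups that leave out those genes, given as a description.

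Transcripts listed as markers of other cell types differed between the genotypes beside these genes. All 11 tested B cell markers of 13 listed had both deficient arrays above both wildtype arrays, with a median difference of 1.04, and 3 passed: Ms4a1 (CD20), Blnk and Cd22. Over all tested genes, 15.9% separated upward in this way and 0.172% were called higher. Pax5, also on the list, lay below the filter at 68.9 and 23.9 against 11.3 and 21.9, lower in both deficient arrays. The filter took the mean over all 4 arrays. Through the deficient arrays Pax5 thus failed it, while Cr2, among the 11 tested, passed it. The summed signal of the B cell list was 4903 and 7069 in the wildtype and 13632 and 13996 in the deficient arrays. Of 4 tested NK cell markers all 4 were positive and separated, though Ncr1, a defining NK gene, lay below the filter. The summed signal of the NK list was 5060.5 and 5499 in the wildtype and 6796 and 9162 in the deficient arrays. Most of that sum on every array was Nkg7 alone, at 4608 and 4932 against 6062 and 8154. Of the B cell markers 7 of 11 (63.6%) and of the NK markers 3 of 4 (75.0%) were highest on deficient replicate 2. So were 5 of 8 T cell markers (62.5%), 58.8% of the interferon genes and 21.9% of all tested genes. The B cell median, relative to each gene's mean, was 0.53 on deficient replicate 1 and 0.47 on deficient replicate 2. A gene that separates upward is always highest on a deficient array, so the share of all tested genes is not a like baseline for these markers. Of the plasmacytoid dendritic cell markers, Siglech lay below the filter, with 44.1 and 8.68 against 9.61 and 11.2, and 4 of 7 tested separated the genotypes upward, Bst2 and Irf8 among them. The conventional dendritic cell list had 3 of 6 tested positive, with Itgax below the filter and Ccl22 past the test. The macrophage and monocyte list had 3 of 7 positive, with a summed signal of 1059 and 1115 against 1238 and 1296. Its Lyz2 and Adgre1 had both deficient arrays below both wildtype arrays, at -0.52 and -0.47, which 17.7% of all tested genes did. Lyz1, below the filter, also lay lower in both deficient arrays. In the same list Mpeg1, which encodes perforin-2 and was named after its value was seen, read 16.1 and 44.2 against 174.9 and 252.4, at 2.40 ± 0.37 (adjusted p = 0.0642). Mpeg1 passed the filter only through its deficient arrays, and its rise was about as large as that of the summed signal of the list. Of the 2 CD8 T cell markers, Cd8a read 49.6 and 48.1 against 79.4 and 88.9, without overlap, at 0.63 ± 0.30 (adjusted p = 0.953), and Cd8b1 overlapped at 0.04.

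Bst2, Irf5, Irf7 and Irf8 stand on these marker lists. Without them, 24 of 30 tested genes were positive (47.5% of all tested genes were), the median difference was 0.17 and 13 of 30 separated upward (15.9% of all tested genes did), a count added after the data were seen. Many of the remaining genes are expressed in B cells, NK cells and T cells alike, and the part of B or NK cell transcripts in the differences was not tested. In RNA from a bulk sample, more cells of a type and more RNA per cell cannot be told apart.

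**Figure D5:**
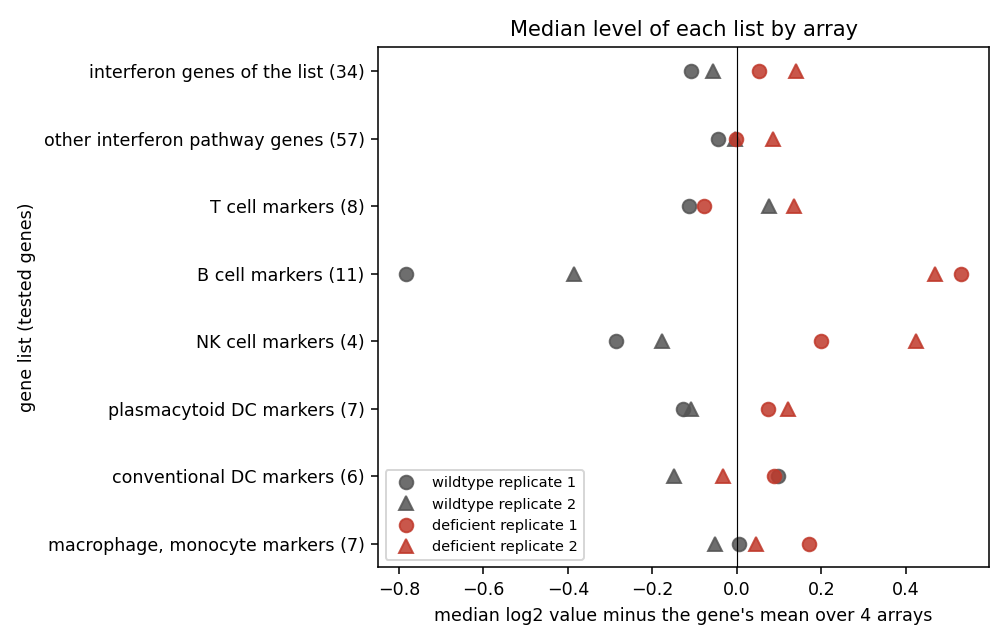
For each gene list (y axis, number of tested genes in brackets), the points give the median over its tested genes of the log2 value minus the gene's mean over the 4 arrays (x axis), grey for wildtype and red for deficient, circles for replicate 1 and triangles for replicate 2. The interferon genes run from -0.11 to 0.14, the B cell markers from -0.78 to 0.53, and the T cell markers overlap between genotypes.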

How the data were processed

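The deposited values are linear intensities (MAS5 signals, per the submitters' processing notes, which also list the Transcriptome Analysis Console; versions are not given in the sources used here). Each deposited array has a 2% trimmed mean of 500, and no further scaling was applied. Detection calls were not used here. The number of arrays, not depth, limits the precision.

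Of 45101 probe sets, 64 controls were left out; 34945 of the rest have a single gene symbol, 932 several and 9160 none in the platform annotation. The log2 scale used a pseudocount of 14.7, the 25th percentile of the whole table. Each gene was represented by its single-symbol probe set with the highest mean signal, and a gene was tested if its mean log2 value reached the 40th percentile of all probe sets. That mean was taken over all 4 arrays, so a dim gene could pass or fail through the arrays of 1 genotype. The fit used limma 3.58.1 in R 4.3.3 (lmFit, eBayes with an intensity trend, genotype only, 8.57 degrees of freedom, 2 residual), two-sided. It was also run on simulated data, with planted changes larger than any difference on the interferon list. That run does not cover changes as small as those reported for the list. With 2 arrays against 2, an exact permutation test of a single gene cannot give p below 0.333. Members and lists were chosen with earlier results of these data known. Arrays were named in full for members past the threshold, the 6 with the smallest p in each direction, those with a difference of at least 0.5, Irf1, Irf5, Irf7, Irf8, Irf9, Stat2 and the receptors, and for Ifng, Jak1, Tyk2 and Socs1; Usp18, Ifih1, Ifit1 and Mndal were added after their values were seen. Marker lists were used for counts and summed signals. Alternatives covered the pseudocount, filter, normalization, probe set rule, variance prior, replicate number as a block, threshold and each array left out. Figures were drawn with matplotlib 3.10.9.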

Additional observations from a re-analysis of the deposited data

How the results depend on the processing

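No interferon gene of the list passed in any of the 15 alternatives run. Where all 34 were tested, 25 to 31 were positive. The 31 came with quantile normalization and with median centring, where 50.5% and 66% of all tested genes were positive. Positive were also 27 of 31 with the filter at the 60th percentile, 29 of 37 without a filter and 24 of 30 without the genes on marker lists. The members' median of 0.19 was 0.27 with median centring, where all tested genes moved from -0.01 to 0.07, and ran from 0.0941 to 0.23 with single arrays left out. Both deficient arrays lay above both wildtype arrays in 16 of the 34, where 15.9% of all tested genes did so. With single arrays left out, 18 to 26 of the 34 lay above the remaining arrays of the other genotype. For all tested genes the share then rose as well, to between 30.2% and 32.8%. Over all genes, 23 calls became 40 at an adjusted p of 0.10, 2 without a filter, 50 with median centring, 14 with the mean of probe sets and 0 without the intensity trend, where limma gave 765 genes with an unadjusted p below 0.05; they ran from 19 to 100 with single arrays left out. The replicate numbers do not pair the samples by the labels, and deviations of same-numbered arrays correlated at 0.054 across genes; with the replicate block 14 genes passed. Among the other pathway genes the 1 call became 0 without a filter, without the trend and with the replicate block, 2 with median centring (Ifng and Mndal), and 0 to 3 with single arrays left out. Of 362 alternative values for named genes, 35 had the other sign, none of them past the threshold, and 5 for Ifng lost the call. Oas2 was 0.0635 with quantile normalization and 0.0625 with median centring. Rsad2 was 0.0469 and 0.0639 with these and 0.0608 with the mean of probe sets; Ifnar1 was 0.0141 and 0.0824 with these, 0.22 with the mean of probe sets and 0.44 on its other probe set. With the mean of probe sets Samhd1, Dhx58, Jak1 and Tyk2 were -0.27, -0.41, -0.0452 and -0.43. Other probe sets gave -0.30, -0.71 and -0.76 for Samhd1, -0.0637 for Irf5, -0.15 for Ifnar2 and 0.0716 for Ifngr2. With single arrays left out, Ifit2 ran from -0.21 to 0.0372, Ifit3 from -1.94 to 0.12, Oas2 from -0.22 to 0.18, Rsad2 from -0.22 to 0.18, Irf7 from -0.29 to 0.31, Ifnar1 from -0.0869 to 0.0854, Ifngr1 from -0.0073 to 0.0529, Jak1 from -0.0405 to 0.12, Tyk2 from -0.12 to 0.17 and Socs1 from -0.0799 to 0.24. Causes of these changes were not tested. Each fit without an array assumes that the lone array of that genotype varies like the remaining pair.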
